A study of Mus musculus with 200 samples.

Results

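Sct is the mouse gene for secretin, a peptide hormone. It was followed here through every perturbation of a study of mouse embryos around implantation. It is 1 gene of 25006 in 4 of the deposited expression tables and 1 of 25229 in the other 3, and it has a value in each of the 200 libraries. It was chosen by its TPM in Suz12 Eed double knockout epiblast set against wild-type epiblast, so its values in that contrast are a description without a test. Which other contrasts were looked at when it was proposed is not known, so the tests and counts given for the rest are not free of that choice. In the files' build, mm10, the gene ENSMUSG00000038580.13 lies on chromosome 7 from 141278330 to 141279133 on the minus strand, and its transcript ENSMUST00000046156 has 4 exons in the GENCODE annotation.

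The libraries are Smart-seq2 RNA-seq of 10 to 100 cells each, and the 70 groups hold 2 or 3 libraries. Epiblast libraries, labelled Epi, came from embryos in which genes were removed by the C-CRISPR method or which were treated from E3.5 with GSK-J4, a compound that blocks Kdm6a and Kdm6b, the enzymes that remove methyl groups from H3K27. The inhibitor was given at 50 µM in the E5.0 libraries, and the labels give no dose for the E4.5 libraries. Treated and untreated Epi were sampled at E4.5 and at E5.0. Suz12 Eed double knockout and wild-type embryos were sampled at E5.0 as Epi and as primitive endoderm, PrE, the layer that faces the blastocyst cavity. Zbtb17 knockout and control Epi came from E4.5, and Zbtb17 Epi under dTAG, a degradation-tag treatment, and its control from E5.0. A screen at E5.0 holds 40 knockout groups in 10 batches, each batch with wild-type controls of its own: Suz12, Ezh2, Jarid2, Rnf2, Cbx2, Cbx7, Kdm6a, Kdm6b, Zbtb17, Myc, Ascl2, Atrx, Aurkb, Chd4, Cxxc1, Elf5, Ets2, Fos, Gtf2b, Hdac1 with Hdac3, Hsf2, Junb, Lmo2, Mbd3, Mcrs1, Mta2, Nelfb, Otx2, Ovol2, Smad2, Snai1, Sox4, Ss18, Ssrp1, Tfap2c, Wt1, Zfp281, Zfp57 and, in both batch 7 and batch 8, Bend3. Embryoid bodies (EB), aggregates of differentiating stem cells, were Zbtb17 knockout or wild type and were collected on days 0, 1, 2 and 3, with 2 libraries a day. The knockouts are of whole embryos, so a change in Epi may involve other tissues of the same embryo. The Zbtb17 knockout libraries of E4.5 carry a dTAG treatment in another label, and the batch 8 libraries carry E6.0 in their titles and E5.0 in another label.

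Secretin is known as the product of the S cells of the duodenum, which release it when acid arrives from the stomach, and it makes the pancreas secrete bicarbonate. It acts through Sctr, a receptor coupled to the stimulatory G protein that raises cyclic AMP, and related ligands such as glucagon, VIP and PACAP act on related receptors. In intestinal endocrine cells its transcription is known, from work on the human and rat genes, to use NeuroD1 at an E-box and Sp1 and Sp3 at GC-rich boxes close to the start site. Polycomb repressive complex 2, PRC2, whose core holds Suz12, Eed and Ezh2, writes the H3K27me3 mark on silent genes, and complexes of the PRC1 type, with Rnf2 and Cbx proteins, read that mark or modify histone H2A.

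The 250 bases before the start site are shown because all comparisons below concern how much of this transcript was present. They come from the RefSeq promoter table of GRCm38.p6, chr7:141279134-141279383, read on the minus strand from 5′ to 3′, with the searched motifs in capitals.
Sct promoter: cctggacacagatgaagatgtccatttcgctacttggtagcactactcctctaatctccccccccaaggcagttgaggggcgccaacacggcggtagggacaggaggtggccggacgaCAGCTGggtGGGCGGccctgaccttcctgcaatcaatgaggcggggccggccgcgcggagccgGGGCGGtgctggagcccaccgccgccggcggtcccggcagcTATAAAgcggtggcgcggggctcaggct
Counted back from the start site, a TATAAA stands at -28 to -23, an E-box CAGCTG at -132 to -127, and a GC box GGGCGG at -123 to -118 and again at -69 to -64. Each motif was searched on both strands, and none of the matches overlaps another. Of 32851 mouse promoters cut to the same window, 12.4% hold TATAAA, 13.0% hold CAGCTG and 32.7% hold GGGCGG. The Sct window holds 22 CG dinucleotides, against a median of 6 over all promoters, and 14.8% of promoters hold at least as many; its G and C bases make up 68%. These matches describe letters and were not tested for binding. The RefSeq gene entry of Sct reaches upstream to 141279174, inside this window, so the positions hold only for the start site used here.

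All values are TPM, in which each transcript is counted per length and as a share of its library. The read depth behind them is unknown, and libraries listed between 3986 genes (Zbtb17 E4.5) and 13512 genes (EB) at 1 TPM or more. PrE control libraries 1 and 2, and Aurkb knockout libraries 1 to 3, were nearly identical over all genes and were each averaged to 1 library. The transcript of the targeted gene is a weak check of these labels, since a knockout can leave RNA behind: of 41 targeted genes in the screen 39 were tested, 8 were lower than in their controls, 3 were higher (Myc, Cxxc1 and Bend3 in batch 7) and 28 did not pass. Epi controls of the screen held 384 to 3445 TPM summed over 11 epiblast markers and 369 to 9142 TPM over 19 trophectoderm, extraembryonic ectoderm and giant cell markers, chiefly the keratins Krt18 and Krt8. In 9 of the 10 control groups the second sum was above the first in the library ranges. In bulk samples, a different share of cells of a type and a different amount of RNA per cell cannot be told apart.

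In Epi with the PRC2 genes Suz12 and Eed both targeted, Sct was among the genes furthest above their controls. This is the contrast by which Sct was chosen. In the Suz12 Eed double knockout Epi, Sct stood at 329.9, 291 and 259 TPM, against 2.64, 5.27 and 3.21 TPM in wild-type Epi. The groups did not overlap, and the mean was 79.1-fold higher in the double knockout. On the log2(TPM + 1) scale, the only scale of log2 changes in what follows, the difference was 6.00, rank 2 of 11250 genes in a contrast where 4.48% of genes were called higher. Those libraries averaged 11.9 TPM of Suz12 and 45.2 TPM of Eed, against 24.7 TPM of Suz12 and 179 TPM of Eed in wild-type Epi, and both targets were lower (adjusted p = 0.0291 and 2.63e-06, limma).

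Removing Suz12 alone, in the screen, gave the highest Sct level of the series. The 3 Suz12 knockout libraries held 3214, 3104 and 3256 TPM, against 8.42, 2.90 and 6.17 TPM in the batch 2 controls. The knockout libraries lay close together, and the mean of 3191 TPM was 548-fold above that of the controls. Sct rose by 8.96 ± 0.41 (log2 change ± SE, n = 3 and 3; adjusted p = 1.12e-37, limma over all genes), where 14.6% of genes were called higher, and ranked 2 of 11057. In level, it was the 35th most abundant transcript of the Suz12 knockout Epi. Suz12 itself averaged 4.50 ± 0.863 TPM in the knockout and 25.5 ± 6.23 TPM in the controls (SD, n = 3 each; adjusted p = 9.7e-08).

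Ezh2, the methyltransferase of PRC2, also gave a rise. Whether it differed from that of Suz12, which was in another batch with other controls, was not tested. Sct was at 333, 378 and 408 TPM in the Ezh2 knockout libraries, against 1.02, 13.9 and 2.97 TPM in the batch 5 controls. No knockout library came near a control, although the controls themselves spread more than 10 TPM. The mean was 62.7-fold higher, the log2 change 6.25 ± 0.41 (adjusted p = 3.35e-25; 12.3% of genes called higher) and the rank 3 of 10338. Without batch 5 control 1 the change was 5.60, and without control 2 it was 7.04. The Ezh2 transcript fell to 15.0 ± 6.45 TPM in the knockout, against 48.4 ± 11.3 TPM in the controls (SD, n = 3 each; adjusted p = 4.29e-05). Jarid2, which helps to bring PRC2 to its target genes, went the other way in value: its knockout libraries held 15.4, 15.4 and 19.5 TPM of Sct, against 31.2, 32.3 and 31.7 TPM in the batch 3 controls. The groups did not overlap, yet the change of -0.89 ± 0.41 did not pass over the whole screen (adjusted p = 0.518; 0.697% of genes called lower). With batch 3 fitted alone the same change passed (adjusted p = 1.9e-05). The Jarid2 transcript averaged 5.95 TPM in its knockout and 7.06 TPM in the controls, and did not pass.

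The primitive endoderm gave a second tissue for the same double knockout. Sct was at 21.0, 15.3 and 11.0 TPM in Suz12 Eed double knockout PrE and was listed at 0 in all wild-type PrE libraries. Every double knockout library thus lay above every wild-type one. The log2 difference was 4.02, with PrE control 1 and 2 counted once, in a contrast where 21.6% of genes were called higher and the median gene moved by 0.40. Sct reached the filter on low values only through the double knockout libraries, so its direction was fixed beforehand, and no p is given. Suz12 averaged 15.1 TPM and Eed 55.5 TPM in double knockout PrE, against 29.4 TPM of Suz12 and 166 TPM of Eed in wild-type PrE, both lower (adjusted p = 0.0428 and 5.02e-05). Between the wild-type tissues, Sct stood lower in PrE, at 0 in each library, than in Epi, at 2.64, 5.27 and 3.21 TPM. That log2 difference of -2.20, where 38.1% of genes were called lower, is a description, because the same wild-type Epi libraries were used to choose the gene.

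**Figure D1:**
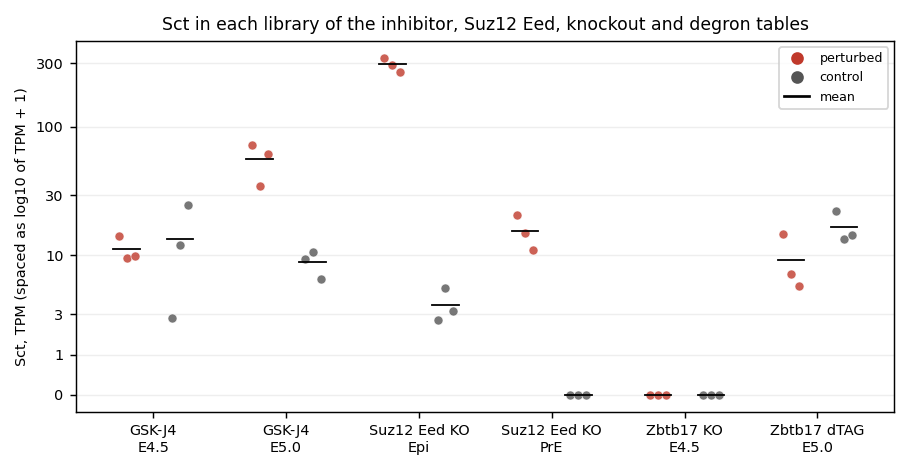
Sct in TPM in each library (points; axis spaced as log10 of TPM + 1), with perturbed libraries left of their controls and bars at group means. The Suz12 Eed double knockout Epi libraries sit at 259 to 329.9 TPM above wild-type Epi, the double knockout PrE libraries sit above controls at 0, GSK-J4 separates from control at E5.0 but not at E4.5, and both Zbtb17 groups of E4.5 are at 0.

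The PRC1 proteins were tested in batch 3, whose controls had the highest Sct of all screen controls. Cbx2, a chromodomain protein that reads H3K27me3, gave the change that passed over the whole screen: its knockout libraries held 211, 217 and 229 TPM, against 31.2, 32.3 and 31.7 TPM in the controls. All knockout libraries lay far above the controls, by 6.89-fold on the means. The log2 change was 2.75 ± 0.41 (adjusted p = 3.59e-07), rank 8 of 10771, in a contrast where 1.04% of genes were called higher. The Cbx2 transcript was near the detection floor in both groups, at 0.984 ± 0.545 TPM in its knockout and 0.669 ± 0.454 TPM in the controls (SD, n = 3 each), so it gives no check of the label.

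Rnf2, the catalytic ubiquitin ligase of PRC1, left Sct at 49.3, 62.0 and 54.9 TPM when knocked out, against the same controls. These values did not overlap with the controls, but the change of 0.78 ± 0.41 did not pass (adjusted p = 0.718; 1.04% of genes called higher); with batch 3 fitted alone it did (adjusted p = 1.09e-04). Cbx7, a second chromodomain protein, gave 40.4, 46.9 and 34.7 TPM and a change of 0.34 ± 0.41 (adjusted p = 1.00; 0.517% called higher). A change that misses the threshold does not show that Sct was unaffected. Whether the Cbx2 change differed from those of Rnf2 and Cbx7 was not tested.

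The H3K27 demethylases, which remove the mark that PRC2 writes, were reached by the inhibitor and by knockouts. With GSK-J4, Sct in E5.0 Epi stood at 72.5, 35.5 and 62.2 TPM, against 9.40, 10.7 and 6.40 TPM in untreated Epi. The lowest treated library was above the highest untreated one. The means were 56.7 ± 19.0 TPM and 8.84 ± 2.22 TPM (SD, n = 3 each), a 6.42-fold difference and a log2 change of 2.52 ± 0.34 (adjusted p = 0.00146; 16.6% of genes called higher), rank 316 of 10681. Kdm6b was itself higher under the inhibitor, at 35.8 ± 2.56 TPM, against 20.0 ± 2.05 TPM in untreated Epi (adjusted p = 0.0233), and Kdm6a did not pass. The treated libraries also held 2924 to 3070 TPM of 18 primitive endoderm markers, against 142 to 175 TPM in untreated Epi, and 599 to 776 TPM of epiblast markers, against 1632 to 1660 TPM in untreated Epi. Of the 17 primitive endoderm markers tested there, 17 rose. A marker at or near 0 in untreated Epi could enter this count only by being high in the treated libraries. Gata6 was listed at 0 in all untreated libraries. The part of this marker shift in the Sct value was not tested.

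At E4.5 the inhibitor showed no such separation. Sct was at 14.3, 9.59 and 9.89 TPM in treated Epi, against 2.77, 12.3 and 25.4 TPM in untreated Epi. The untreated libraries spread on both sides of the treated ones. The change was 0.14 ± 0.80 (adjusted p = 0.975; 0.611% of genes called higher) and turned negative when untreated library 1 or treated library 1 was left out. The difference between the stages was not tested, because the tables were made separately. At E4.5 primitive endoderm markers summed to 2519 to 2712 TPM in treated Epi, against 1997 to 2215 TPM in untreated Epi. Epiblast markers summed to 1697 to 1826 TPM in treated Epi, against 2022 to 2276 TPM in untreated Epi. Untreated Epi thus held far more primitive endoderm marker RNA at E4.5 than at E5.0, and the part of this in the Sct values was not tested.

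Knockout of Kdm6a left Sct at 3.61, 5.77 and 4.14 TPM, against 2.22, 4.29 and 2.16 TPM in the batch 4 controls, with overlapping groups and a change of 0.53 ± 0.41 (adjusted p = 0.504; 5.55% called higher). Knockout of Kdm6b gave 10.3, 10.0 and 10.4 TPM, against 1.02, 13.9 and 2.97 TPM in the batch 5 controls. One control lay above all Kdm6b knockout libraries. The change of 1.19 ± 0.41 passed (adjusted p = 0.0253; 5.98% called higher), but it was lost with batch 5 fitted alone (adjusted p = 0.142) and in 7 of the 9 fits that left out a library. Neither targeted transcript fell by the test: Kdm6a averaged 2.68 TPM in its knockout and 5.19 TPM in the controls, and Kdm6b averaged 4.29 TPM in its knockout and 8.06 TPM in the controls.

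Zbtb17, a POZ and zinc finger protein also called Miz1 that binds Myc, was perturbed in 4 settings. In the screen, its knockout libraries held 203, 200.5 and 279.9 TPM of Sct, against 1.76, 1.39 and 2.87 TPM in the batch 6 controls. The knockout libraries lay at about the level of the Cbx2 knockout libraries, over far lower controls. The mean was 113-fold higher, and the log2 change was 6.26 ± 0.41 (adjusted p = 1.08e-25; 10.5% of genes called higher), rank 10 of 9815. The Zbtb17 transcript did not fall: it averaged 6.93 ± 7.09 TPM in the knockout and 2.65 ± 2.06 TPM in the controls (SD, n = 3 each; adjusted p = 0.484).

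Under dTAG at E5.0, Sct lay lower in value. The treated libraries were at 14.9, 6.97 and 5.51 TPM, against 22.7, 13.6 and 14.7 TPM in the controls. One treated library fell among the controls. The change of -0.91 ± 0.40 did not pass (adjusted p = 0.187; 4.49% of genes called lower). At E4.5, Sct was listed at 0 in all 3 Zbtb17 knockout and all 3 control libraries, and it was not tested. These were the libraries with the fewest genes, and Pou5f1, the epiblast factor Oct4, was at 0 in all 3 of the knockout.

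In embryoid bodies, Sct stood higher in Zbtb17 knockout than in wild type, least securely on day 0. On day 0 the knockout libraries held 2.53 and 1.38 TPM, against 1.14 and 0 TPM in wild type. The log2 difference was 0.99, where 47.1% of genes were called higher. Sct reached the filter on that day only through the knockout libraries, so a rise was favoured beforehand, and no p is given. The difference was 0.44 without wild-type library 2 and 0.70 without knockout library 1. On day 1 they held 20.8 and 22.2 TPM, against 2.02 and 1.20 TPM in wild type. Sct then was 13.3-fold higher and ranked 8 of 13450 genes (log2 change 3.12 ± 0.33, adjusted p = 2.85e-05; 16.5% called higher). On day 2 the knockout stood at 37.7 and 30.8 TPM, against 6.87 and 4.80 TPM in wild type, and on day 3 at 30.0 and 34.6 TPM, against 3.15 and 1.53 TPM in wild type. The groups did not overlap on any day, and the means of days 2 and 3 were 5.86-fold and 13.8-fold higher in the knockout. The log2 changes were 2.37 ± 0.33 on day 2 (adjusted p = 1.35e-04; 18% called higher) and 3.36 ± 0.33 on day 3 (adjusted p = 4.42e-06; 20.9% called higher). The day 2 call was lost after quantile normalization (adjusted p = 0.0715).

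The Zbtb17 transcript fell in these knockout embryoid bodies, to 10.0 ± 0.174 TPM on day 1, against 22.1 ± 1.85 TPM in wild type (SD, n = 2 each; adjusted p = 1.66e-06, limma), and less on day 3, to 13.5 TPM, against 17.7 TPM in wild type. On day 0 it was too low to test. Day 0 libraries stood apart, with the fewest genes in the table and with epiblast sums of 142 to 143 TPM in the knockout and 122 to 127 TPM in wild type; all later libraries held 4282 TPM or more. In wild type, Sct stood higher on day 1, 2 and 3 than on day 0 by 0.82, 2.21 and 1.15, where 91.4%, 90.7% and 90.4% of genes were called higher. Sct reached the filter in these contrasts only through the later day, since wild-type day 0 held 1.14 and 0 TPM. A rise was thus favoured beforehand, and no p is given. Relative to a median gene that was 2.80 higher, Sct lagged on all 3 days. After quantile normalization the changes were -0.72, 0.35 and -0.39, with none passing. The knockout effect was larger than that of day 0 by 2.14 on day 1, 1.39 on day 2 and 2.37 on day 3 (interaction terms, adjusted p = 0.00425, 0.0314 and 0.0012; 8.26%, 11.7% and 14.1% of genes called higher). All 3 interaction terms were lost with a pseudocount of 0.1, at 1.21, 0.06 and 1.32, and after quantile normalization, at 0.51, 0.09 and 0.83. The day 2 term was also lost in 4 of the 8 fits that left out a library: at 0.84 without wild-type day 0 library 1, 1.10 without knockout day 0 library 2, 1.17 without wild-type day 2 library 2 and 1.24 without knockout day 2 library 1.

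**Figure D2:**
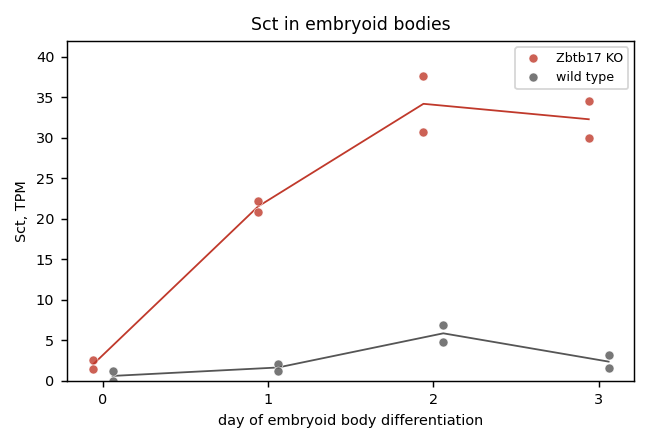
Sct in TPM (points, 1 per library; lines join the means of 2 libraries) by day of embryoid body differentiation, for Zbtb17 knockout and wild type. From day 1 on, the knockout libraries lie at 20.8 to 37.7 TPM and the wild-type libraries at 6.87 TPM or below.

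The libraries labelled Myc knockout held 195, 207 and 199 TPM of Sct, against 2.22, 4.29 and 2.16 TPM in the batch 4 controls. The 3 libraries agreed closely and lay 69.2-fold above the controls on the means. The change was 5.73 ± 0.41 (adjusted p = 8.24e-23; 6.88% of genes called higher). The Myc transcript itself was higher in those libraries, at 145 ± 14.2 TPM, against 56.6 ± 11.6 TPM in the controls (SD, n = 3 each; adjusted p = 2.84e-07), which goes against their label on the RNA level and says nothing of the protein.

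Among factors of general transcription and elongation, the signs differed. Gtf2b is the TFIIB of the initiation complex, and its knockout libraries held 356, 294 and 290.0 TPM of Sct, against 11.7, 14.3 and 5.32 TPM in the batch 10 controls. The rise was 4.87 ± 0.41 (adjusted p = 1.28e-18; 10.4% called higher). Ssrp1, a subunit of the histone chaperone FACT, gave 172, 177 and 172 TPM, against 10.2, 9.25 and 9.01 TPM in the batch 1 controls (4.06 ± 0.41, adjusted p = 1.04e-13; 4.41% called higher). Nelfb, a subunit of the complex that holds RNA polymerase II near its start sites, was the one knockout in which Sct fell: its libraries were at 0, 0 and 1.57 TPM, against the same batch 1 controls. Sct reached the filter on low values there only through the controls. The groups did not overlap, and the change was -2.93 ± 0.41 (adjusted p = 5.95e-09, limma), with 9.71% of genes called lower. Those libraries also held 2276 to 2380 TPM of primitive endoderm markers, against 356 to 411 TPM in the controls; the part of this in the Sct value was not tested. None of these 3 targeted transcripts passed in its own knockout, and that of Nelfb was 18.6 TPM in the knockout and 10.9 TPM in the controls.

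Of the nucleosome remodelling and deacetylase complex, NuRD, the ATPase Chd4 gave a rise. Its knockout libraries held 74.6, 95.1 and 109 TPM of Sct, against 11.7, 14.3 and 5.32 TPM in the controls (3.12 ± 0.41, adjusted p = 1.76e-09; 5.68% called higher). Mbd3 and Mta2, other subunits, gave 23.9, 18.9 and 20.5 TPM and 11.1, 14.2 and 22.3 TPM, with changes of 1.04 and 0.60 that did not pass (adjusted p = 0.387 and 0.792; 0.796% and 1.01% called higher). The double knockout of the deacetylases Hdac1 and Hdac3 gave 4.65, 10.2 and 12.5 TPM (-0.17 ± 0.41, adjusted p = 0.908; 3.52% called lower), while the Hdac1 transcript fell to 32.8 TPM, against 157 TPM in the controls. Only the Chd4 libraries of these 4 groups lay above every screen control.

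Zfp57, a KRAB zinc finger protein that keeps imprinted genes methylated, had Sct as its most increased transcript. The knockout libraries held 249.9, 285 and 209 TPM, against 1.02, 13.9 and 2.97 TPM in the batch 5 controls, and the groups lay far apart. Sct ranked 1 of 10191 genes there, 41.7-fold higher (5.65 ± 0.41, adjusted p = 1.30e-21; 5.33% called higher). The size rests on the spread of these controls: the change was 5.01 without control 1 and 6.45 without control 2. Hsf2, a heat shock factor, gave 114, 116 and 94.3 TPM in its knockout, against 11.7, 14.3 and 5.32 TPM in the batch 10 controls, in a contrast with few calls: Sct rose by 3.34 ± 0.41 (adjusted p = 1.46e-09) and ranked 6, while 0.249% of genes were called higher. Fos, the AP-1 subunit, gave 57.9, 38.1 and 48.9 TPM against the same controls (2.18 ± 0.41, adjusted p = 1.68e-04; 1.04% called higher), and its partner Junb did not pass at 0.13 (0.262% called higher). Wt1, a zinc finger factor of kidney and gonad, gave 21.9, 18.0 and 22.6 TPM, against 3.18, 2.15 and 1.11 TPM in the batch 9 controls (2.84 ± 0.41, adjusted p = 3.32e-07; 0.438% called higher). Ovol2, an epithelial zinc finger factor, gave 11.9, 8.80 and 10.4 TPM against those controls (1.90 ± 0.41, adjusted p = 0.00317; 0.538% called higher), and lost its call in 2 of the 9 fits that left out libraries, at 1.64 without control 3 and 1.63 with the third replicate of all groups left out.

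In batch 2, Sct rose in every knockout, each time against the same 3 controls of 8.42, 2.90 and 6.17 TPM. The libraries labelled Cxxc1 knockout, for a CpG-binding subunit of the Set1 methyltransferase complex, held 74.7, 77.9 and 84.5 TPM (3.64 ± 0.41, adjusted p = 2.5e-12; 12.3% called higher), with the Cxxc1 transcript itself higher, at 8.54 TPM, against 1.73 TPM in the controls (adjusted p = 0.0118). Ascl2, needed for the spongiotrophoblast, had 2 libraries at 88.2 and 62.9 TPM (3.56 ± 0.46, adjusted p = 1.64e-09; 4.22% called higher). Ets2, an ETS factor of trophoblast, gave 15.8, 54.3 and 59.5 TPM (2.58 ± 0.41, adjusted p = 3.38e-07; 11.5% called higher), with library 1 well below the other two; without it the change was 3.17. Elf5, which maintains trophoblast stem cells, gave 26.7, 16.5 and 36.7 TPM (2.04 ± 0.41, adjusted p = 5.38e-05; 11.4% called higher). Lmo2, a bridging protein of blood formation, gave 19.2, 19.0 and 24.5 TPM (1.76 ± 0.41, adjusted p = 0.00208; 2.46% called higher). Mcrs1, a subunit of chromatin-modifying complexes, gave 11.2, 24.2 and 10.0 TPM (1.23 ± 0.41, adjusted p = 0.0256; 9.93% called higher). The call of Mcrs1 was lost in 3 of 9 fits that left out libraries, among them those without knockout library 2, at 0.86, and without control 2, at 0.87. That of Lmo2 was lost in 3 of 9, at 1.40 without control 2, and that of Fos in 1 of 9, at 1.78 with the third replicate of all groups left out. Because these 7 comparisons share 3 control libraries, they are not 7 separate measurements of the controls. The same controls differed from those of all other batches in the gut hormone genes Nts and Pyy, whose values are given with those genes.

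Counted over the screen, Sct was tested in 38 of the 40 knockout groups and rose in 20, fell in 1 and did not pass in 17. In the 1 fall, that of Nelfb, Sct reached the filter only through the controls. The share of genes called higher in a screen comparison was 3.22% in the median and 14.6% at most. The 20 rises run from 1.19 to 8.96 on the log2 scale, and in 19 of them no knockout library overlapped with a control; Kdm6b was the exception. The 17 that did not pass had changes from -0.89 to 1.37 and adjusted p from 0.0712 to 1.00. Among 7405 genes tested in all 38 groups, 23 genes, or 0.311%, had at least 20 rises, and the median gene had 1. Bend3 in batch 8 was not tested, with libraries at 0, 0.90 and 0.59 TPM against controls at 0, and Aurkb, for the mitotic kinase Aurora B, was counted as 1 library.

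The rises were unevenly spread over batches. Sct rose in 7 of 7 tested groups of batch 2, 3 of 3 of batch 5, 1 of 1 of batch 6, 4 of 8 of batch 10, 2 of 5 of batch 9, 1 of 4 of batch 1, 1 of 5 of batch 3, 1 of 4 of batch 4 and 0 of 1 of batch 7. The 29 control libraries ranged from 0 to 32.3 TPM with a median of 3.18 TPM, and control group means from 0 in batch 8 to 31.7 TPM in batch 3. Set against every control library of the screen at once, 16 knockout groups had all their libraries above the highest one. Ranked by mean level, Suz12 stood alone at the top. Ezh2 and Gtf2b overlapped next, then Zfp57 with Zbtb17 and Cbx2, then Myc, below Cbx2 but overlapping Zbtb17, then Ssrp1, apart from its neighbours, then Hsf2, Chd4, Cxxc1 and Ascl2, each overlapping the next. Below these, neighbours mostly overlapped, down to the batch 8 controls at 0.

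**Figure D3:**
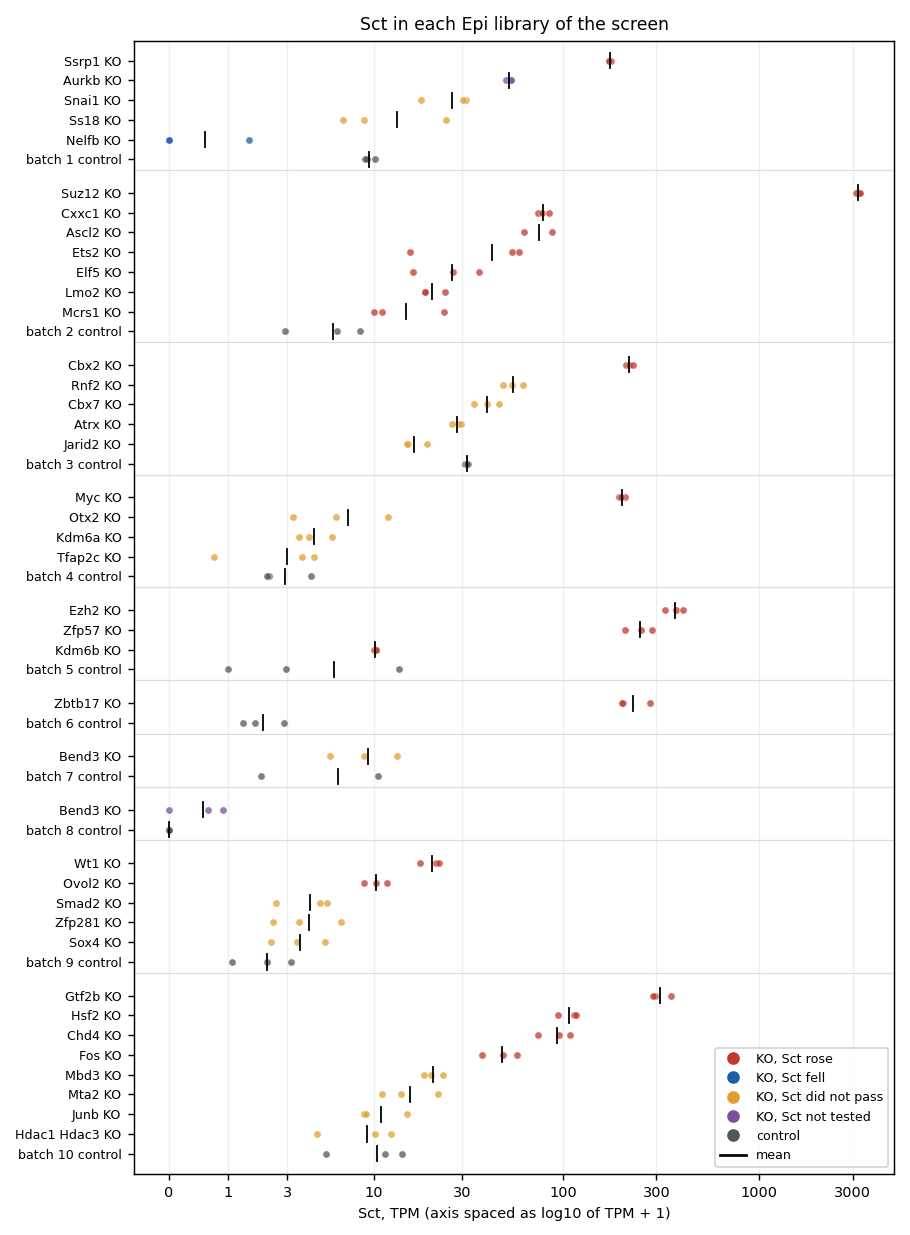
Sct in TPM (axis spaced as log10 of TPM + 1) in each Epi library of the screen, by batch, with knockouts above their own controls and bars at group means; colours give the call of the test. The Suz12 knockout libraries at 3104 to 3256 TPM stand apart on the right, and the Nelfb knockout libraries, 2 of them drawn over each other at 0, lie left of the batch 1 controls.

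The receptor for secretin had no value above 0 in most libraries. Sctr was listed at 0 in 179 of the 200 libraries and reached 1 TPM in 3, with a highest value of 6.04 TPM in Suz12 knockout library 1, so it passed no filter and was tested nowhere. Of 9 receptors of the family, Gipr and Glp1r were tested in the screen, in 7 tests with no call. In Suz12 Eed double knockout PrE, Gcgr, the glucagon receptor, averaged 2.26 TPM and was listed at 0 in wild-type PrE. Of the other 5 ligands, Vip, a neuropeptide, averaged 6.71 TPM in Zbtb17 knockout embryoid bodies on day 3, against 0.504 TPM in wild type, and Gip, a hormone of intestinal K cells, averaged 5.70 TPM in wild-type PrE and was listed at 0 in wild-type Epi. Each of these 3 genes had its reference libraries at or near 0 and was tested only because the other group was high, so no p is given.

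The genes that a peptide hormone needs around it were counted over the 39 screen comparisons in which genes were tested. Over all genes, 5.04% of tests were called higher and 5.09% lower. A gene can be tested in a comparison only because 1 of the groups is high in it, so these counts describe the tests and no more. Of 12 genes of prohormone processing and dense-core granules 7 were tested, and 10 of their 109 tests rose and 6 fell. All 6 falls were those of Pcsk1n, which was tested in 37 comparisons and rose in 1. In the Suz12 knockout, Pam, which amidates peptide ends, averaged 14.4 TPM, against 0.303 TPM in the controls. Scg5, a chaperone of the convertase Pcsk2, averaged 6.07 TPM there and was listed at 0 in the controls, and Cpe, a carboxypeptidase, averaged 6.24 TPM in the knockout and 0.701 TPM in the controls. Of 29 genes of cyclic AMP signalling 19 were tested, and 16 of 408 tests rose and 14 fell, near the share of all genes. Adcy7, an adenylyl cyclase, averaged 4.11 TPM in the Suz12 knockout and was listed at 0 in its controls. For 3 receptor activity-modifying proteins, 7 of 67 tests rose and none fell; among them Ramp3 averaged 10.6 TPM in the Suz12 knockout and was listed at 0 in its controls. Of 15 transcription factors of intestinal endocrine cells 8 were tested, and 8 of 177 tests rose and 3 fell. Foxa2, also a primitive endoderm factor, gave 5 of those rises, Neurod1 passed in none of 21 tests and Sp1 in none of 39, and Isl1 averaged 4.43 TPM in the Ezh2 knockout, against 0.497 TPM in its controls. All the members named here with TPM values reached the filter only through the knockout.

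Other gut peptide hormones were seldom high enough to test. Of 14 of them 6 were tested, and 7 of their 66 tests rose and 21 fell, with a median change of -0.40. Cck, the gene of cholecystokinin, was listed at 0 in the controls of batches 2 and 3, and averaged 29.6 TPM in the Suz12 knockout, 6.97 TPM in the Mcrs1 knockout and 1.33 TPM in the Rnf2 knockout. It was tested only in those 3, where the knockout lifted it over the filter. Of the 21 falls, 14 were those of Nts, for neurotensin, and Pyy, for peptide YY, in the 7 knockouts of batch 2, against the same 3 controls. Nts was at 0 in all 20 knockout libraries of that batch, against 13.6 to 25.6 TPM in its controls. In the 26 controls of the other batches it reached 0.13 TPM at most. Pyy was at 1.01 TPM or less in the batch 2 knockouts, against 6.88 to 8.44 TPM in the batch 2 controls, and at 1.32 TPM or less in the controls of the other batches. The batch 2 controls thus stood apart from all other controls in these 2 genes, and the part of this in the batch 2 changes of Sct was not tested. In batch 6 Pyy averaged 20.7 TPM in the Zbtb17 knockout and was listed at 0 in the controls, while Calca, for calcitonin and CGRP, was listed at 0 in the knockout and averaged 17.5 TPM in the controls. Under GSK-J4 at E5.0, Chga, a granule protein, averaged 16.7 TPM, against 0.370 TPM in untreated Epi, and Calca 4.83 TPM, against 37.0 TPM in untreated Epi. In embryoid bodies on day 3, Cck rose by 2.69 and Cpe by 2.10 in the Zbtb17 knockout, together with Sct.

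Most tested genes next to Sct on chromosome 7 moved less than Sct in the knockouts in which Sct rose. Those knockouts were picked by the rise of Sct, so a smaller change of its neighbours was favoured beforehand. The 5 nearest on each side are Mir210, Gm51460, Phrf1, Irf7 and Cdhr5, and Drd4, Deaf1, Tmem80, Eps8l2 and B230206H07Rik. In the 20 knockouts in which Sct rose, their 89 tests gave 12 rises (13.5%), spread over 8 knockouts, and 1 fall; of all genes tested in the same knockouts, 6.50% of tests were called higher. A neighbour moved further than Sct in 1 of the 20, Mcrs1. In the Suz12 knockout, Drd4, a dopamine receptor, was at 8.29 ± 2.26 TPM and was listed at 0 in the controls, a log2 difference of 3.19. There Cdhr5, a cadherin of the intestinal brush border, was at 3.25 TPM in the knockout and also listed at 0 in the controls, and Irf7, an interferon regulatory factor, was at 2.29 TPM in the knockout and 0.628 TPM in the controls. All 3 of these genes reached the filter only through the Suz12 knockout libraries, so their direction was fixed beforehand.

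Several neighbours were tested in each of the 20 knockouts in which Sct rose. Among them Eps8l2, an actin regulator, was tested in all 20 and rose in 3. It averaged 20.0 TPM in the Ezh2 knockout, against 7.23 TPM in its controls, 26.5 TPM in the Zbtb17 knockout, against 9.42 TPM in its controls, and 23.2 TPM in the Gtf2b knockout, against 10.4 TPM in its controls. In Suz12 Eed double knockout Epi it was at 16.7 TPM, against 5.41 TPM in wild-type Epi (log2 change 1.52, adjusted p = 0.0122), and in Zbtb17 knockout embryoid bodies of day 1 at 8.45 TPM, against 1.39 TPM in wild type (1.99, adjusted p = 3.33e-07). In the Nelfb knockout, where Sct fell, Eps8l2 fell too, to 2.03 TPM, against 7.71 TPM in the controls (-1.84, adjusted p = 0.00163).

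The genes most like Sct over the screen were found by the correlation of log2(TPM + 1), centred on the mean of each batch, over 146 libraries and 12914 genes; the libraries share batches and controls. They were Dnase1l3, a secreted nuclease (r = 0.762), Sin3b, a co-repressor scaffold (0.760), Prl2c5, a prolactin family hormone of the placenta (0.711), Lgals3, the lectin galectin-3 (0.706), and Serpinb9c, a serine protease inhibitor (0.699). Without the 3 Suz12 knockout libraries, r was 0.726, 0.702, 0.658, 0.720 and 0.633 in the same order. In the Suz12 knockout, Dnase1l3 averaged 285 TPM, against 17.4 TPM in the controls, Sin3b 1504 TPM in the knockout and 192 TPM in the controls, and Lgals3 696 TPM in the knockout and 188 TPM in the controls. They did not track Sct in each knockout: with Ezh2 removed, Prl2c5 averaged 2.42 TPM, against 34.2 TPM in the controls, and fell by 3.61 (adjusted p = 4.54e-07).

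Markers of trophectoderm and its derivatives were higher in sum in many of the knockouts, whether or not Sct rose there. Their summed level was 17286 to 17684 TPM in the Suz12 knockout, against 4860 to 5085 TPM in its controls. It was 12684 to 15082 TPM in the Zbtb17 knockout, against 3829 to 4690 TPM in its controls, and 6481 to 8740 TPM in the Ezh2 knockout, against 3902 to 4011 TPM in its controls. In Suz12 Eed double knockout Epi it was 6465 to 7527 TPM, against 1716 to 1874 TPM in wild-type Epi. Of the 19 markers, Krt18 made up 37.0% of the mean sum in the screen, Krt8 19.6%, the giant cell hormone Prl3d1 16.4% and Plac1 7.34%. Tpbpa, a spongiotrophoblast marker, was at 0 in most control groups, and Prl2c2 in several.

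Of the 20 knockouts in which Sct rose, the trophectoderm sum was higher without overlap in 14, lower in 5 and overlapping in 1; of the 17 in which it did not pass, the sum was higher in 9, lower in 6 and overlapping in 2. In Nelfb, the knockout in which Sct fell, the sum was higher without overlap. The Cbx2 knockout had Sct higher with the sum lower, at 4856 to 4970 TPM, against 8892 to 9142 TPM in the batch 3 controls. The Ss18 and Hdac1 Hdac3 knockouts had the sum higher, at 10422 to 10584 and 9134 to 10049 TPM, against 3487 to 3758 TPM in the batch 1 and 2557 to 3515 TPM in the batch 10 controls, with no call for Sct. Over the 146 libraries, centred by batch, Sct correlated with the sum at r = 0.551, or 0.464 without the Suz12 knockout, and with the epiblast sum at -0.327. The primitive endoderm sum was higher without overlap in 15 of the 20 knockouts in which Sct rose, lower in 2 and overlapping in 3; of the 17 in which Sct did not pass it was higher in 5, lower in 6 and overlapping in 6. Over the libraries its correlation with Sct was 0.149. The epiblast sum was lower in 9 of the 20 and higher in 2, and lower in 5 of the 17 and higher in 7. In embryoid bodies, whose trophectoderm sums were low throughout, the sum was 430 to 449 TPM in Zbtb17 knockout on day 1, against 108 to 111 TPM in wild type, with Prl3d1, Elf5 and Tpbpa at 0 in both. Blood markers and stroma and decidua markers overlapped between knockout and control in 17 and in 13 of the 20. The part of these markers in the Sct changes was not tested.

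**Figure D4:**
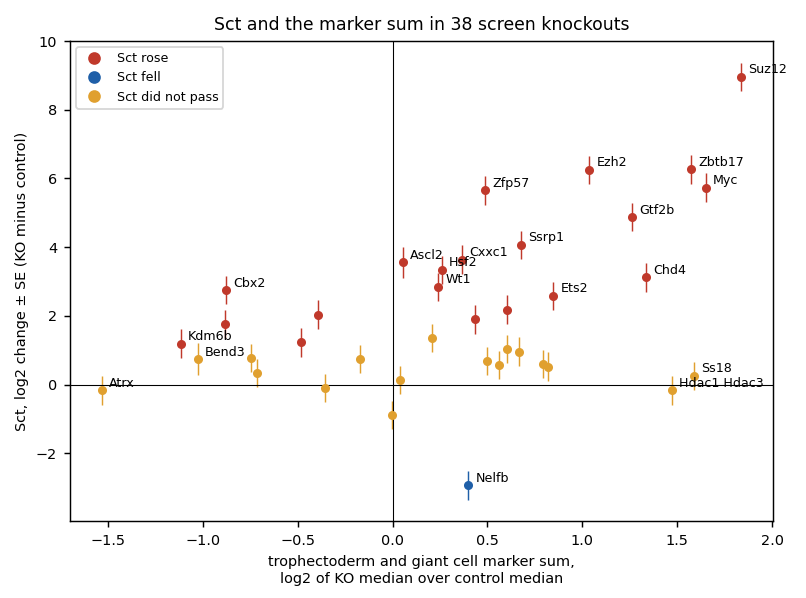
Log2 change of Sct with its SE (vertical) against the log2 ratio of the median trophectoderm and giant cell marker sum, knockout over control (horizontal), for the 38 screen knockouts tested; colours give the call for Sct. Rises of Sct lie on both sides of 0 on the horizontal axis, Suz12 at the upper right and Cbx2 and Kdm6b on the left.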

How the data were processed

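Expression was measured by Smart-seq2 RNA-seq of poly(A) RNA with 17 cDNA cycles, per the labels' protocols. The authors deposited TPM values in 7 tables; HISAT2 2.2.1, StringTie 2.2.1, Cufflinks and mm10 are named by the submitters' processing notes, which give no roles or order. TPM keep no read depth, so no counting intervals are given. The embryoid body table has no gene names: its 25006 rows were read in the order of the screen table, with which its mean log2 values correlated at 0.893, against 0.112 at most when shifted by 1 to 5 rows.

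Sct and all gene lists were chosen with earlier results of these data known. Each table was fitted over all genes with limma 3.58.1 in R 4.3.3 on log2(TPM + 1), 1 mean per group, eBayes with a trend, and Benjamini-Hochberg adjustment within each comparison at 0.05. Genes needed 1 TPM in at least as many libraries of the compared groups as the smaller group holds. Sct had 53 tests. For the 2 with wild-type PrE at 0 no p is given. The same holds for the embryoid body contrasts that Sct entered only through the day 0 knockout or a later day. The screen was 1 fit, each knockout against its batch's controls. Nothing in the labels says that libraries came from separate embryos, so p-values measure the spread between libraries, which may be technical; the protocol speaks of biological replicates. Scripts were tested on simulated data.

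Named genes are the targets of perturbations described, list members that passed (up to 4 a comparison, largest change first), Sctr, 5 neighbours a side and the 5 most correlated genes, leaving out of these last any clone names, predicted genes or pseudogenes. For named list members that reached the filter through 1 group only, TPM are given and no p. Sct values in the Mbd3, Mta2, Hdac1 Hdac3, Junb, Aurkb and batch 8 Bend3 knockouts were added after they were seen. Replicate numbers are shared between groups without a stated meaning; of 52 comparisons, 1 had all pairs of same-numbered libraries correlated above 0.1. The fits were repeated with each library left out, with library weights, after quantile normalization, with a pseudocount of 0.1, without the filter, with the replicate number as a block, on the compared groups alone, and with nearly identical libraries kept separate. Python 3.11.15, pandas 2.3.3, numpy 2.4.6 and matplotlib 3.10.9 were used for tables and figures.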

Additional observations from a re-analysis of the deposited data

Results flagged for a closer look

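The Zbtb17 knockout effect on Sct in embryoid bodies differed from that of day 0 by the interaction terms: by 2.14 on day 1, 1.39 on day 2 and 2.37 on day 3 (log2 scale, limma). Day 0 libraries list far fewer genes, and the terms did not hold with a pseudocount of 0.1 or after quantile normalization.

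The Aurkb knockout libraries, which no test used because the 3 were nearly identical, averaged 52.8 TPM of Sct, above the 9.48 ± 0.621 TPM of the batch 1 controls (SD, n = 3).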

How the results depend on the processing

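Outside the screen, 153 of 183 alternatives kept the direction and the side of the threshold, 25 lost the call, 4 changed direction and 1 moved a value; in the screen, 470 of 505 kept both, 21 lost a call, 7 gained one and 7 changed direction. Sct in Suz12 Eed double knockout Epi was 6.32 with a pseudocount of 0.1. GSK-J4 at E4.5 ranged from -0.63 to 0.77 with a library left out. The embryoid body knockout effect on day 0 was 0.99, and ranged from 0.44 to 1.54 with a library left out. It did not pass without the filter, with library weights or with the compared groups alone (limma, adjusted p = 0.0595, 0.0746 and 0.0788). The effect on day 2 was 2.15 after quantile normalization (limma, adjusted p = 0.0715). In wild type, quantile normalization gave -0.72, 0.35 and -0.39 on days 1, 2 and 3. Day 1, at 0.82, did not pass without the filter or with the compared groups alone (limma, adjusted p = 0.0523 and 0.0951). Leaving out a library gave 0.27 to 1.37 on day 1 and 0.60 to 1.70 on day 3. The interaction terms were 1.21, 0.057 and 1.32 with a pseudocount of 0.1 and 0.51, 0.089 and 0.83 after quantile normalization; that of day 2, at 1.39, was lost without the filter and with the compared groups alone, and ranged from 0.84 to 1.93 with a library left out. In the screen, changes that did not pass ranged with a replicate left out from -0.30 to 0.66 for Ss18, -0.81 to 0.33 for Hdac1 Hdac3, -0.14 to 0.52 for Junb, -0.035 to 0.94 for Mta2, -0.52 to 0.31 for Tfap2c and 0.030 to 1.73 for Bend3 in batch 7, which passed without replicate 2 (adjusted p = 0.0242), and turned to -0.075 for Junb and -0.15 for Sox4 with library weights. The count of knockouts with a fall was 2 with library weights and with each batch fitted alone, the second being Jarid2; that with a rise was 18 to 21 over the settings and 16 to 19 with a replicate left out. The causes were not tested. With the replicate number as a block, GSK-J4 at E5.0 stayed at 2.52 (adjusted p = 0.00421), the screen gave 21 rises, adding Snai1, and no call outside the screen changed; for dTAG no paired analysis was possible because its groups share no numbers. Depth cannot be judged from TPM, so a listed 0 sets no limit.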
